A study of Mus musculus with 4 samples.

Results

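The vacuolar ATPase and lysosomal gene set described here holds 40 of the 32285 genes counted in mouse lung leukocytes. Its members were taken by gene symbol: 16 encode parts of the proton pump, 15 encode lysosomal hydrolases, 6 encode lysosomal membrane proteins and 3 encode soluble lysosomal proteins that are not enzymes. All 40 symbols were found in the gene lists of the 4 libraries. Lysosomes are acidic organelles in which cells degrade material they have taken up and worn parts of their own. The vacuolar ATPase makes them acidic: its V1 sector, on the cytosolic face, hydrolyses ATP and so drives the V0 sector, which carries protons across the membrane. Cathepsins and other hydrolases work in that acid, and in phagocytes they break down ingested microbes and dead cells, whereas in antigen-presenting cells they also prepare peptides for display.

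Each library held leukocytes sorted on CD45 from left lungs of B6 mice, 2 h after those lungs had been grafted into mice of the same strain. Shortly before receiving the graft, recipients were injected by vein with vehicle or with RvD1 (resolvin D1, a lipid mediator that limits inflammation), 200 ng for each mouse dissolved in 200 µL of 1% ethanol. The labels' protocols say so, whereas the design text speaks of treated grafts. The lungs had been kept for 60 min at 4 °C and 45 min at 28 °C, and lungs of 2 mice were pooled for each library. The donor's and the recipient's leukocytes of a graft were separated, which gave 4 groups of 1 library: donor cells with vehicle, donor cells with RvD1, recipient cells with vehicle and recipient cells with RvD1. Values for these groups are listed below in that order. The labels give no genotype, age or sex, and do not say whether the same lungs gave the donor and the recipient cells of a treatment.

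With 1 library in each group there was no replicate spread and no test between groups, so each value carries a 95% interval that covers counting error only. The 4 libraries held 5743, 5195, 5987 and 7836 cell barcodes, of which 5527, 5024, 5829 and 7345 were kept, with median depths of 7905, 6464, 5830 and 5386 UMIs (unique molecular identifiers, 1 per captured transcript) per barcode. Between 4 and 15 barcodes were shared by any pair of libraries. Counting had been done with Cell Ranger 6.1.1 in the vehicle libraries and with 7.0.1 in the RvD1 libraries, per the file headers, so RvD1 and the software version cannot be told apart in what follows. Across genes, the RvD1-to-vehicle log2 ratio correlated with intron length at a Spearman rho of −0.13 and −0.14 in neutrophils, −0.24 and −0.26 in classical monocytes and −0.26 and −0.23 in nonclassical monocytes (donor, then recipient). Those genes share the libraries and are not independent replicates. Lymphocytes gave larger values, −0.39 and −0.31 for T cells, −0.47 and −0.40 for B cells, −0.36 and −0.37 for NK cells. Ptprc, the gene for CD45, stood between 1226 and 1464 CPM (UMIs of the gene divided by all UMIs of that class in the library and scaled to 1e6) in neutrophils, and all 9 neutrophil markers were above 10 CPM there in every library, as were the 6 markers of classical monocytes and the 8 of nonclassical monocytes in those classes. The libraries held 1414, 1900, 3339 and 3040 neutrophils, 570, 768, 169 and 281 classical monocytes, and 527, 256, 194 and 331 nonclassical monocytes.

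The promoters of some members carry an E-box, the 6 letters CACGTG, and a subset carry it inside the palindrome TCACGTGA. TFEB and its relatives, known as regulators of lysosomal genes, bind sequences of this kind. A RefSeq promoter window on GRCm38.p6, from 250 bases before to 50 after the gene start, was at hand for 32 of the 40 members, with none for Atp6v1b2, Atp6v1c1, Atp6v1g1, Atp6v1h, Atp6v0d2, Ctsb, Ctsh and Npc1. Of the 10 members with a window that were lower in RvD1 neutrophils in both donor and recipient, 6 hold CACGTG. Stretches of those 6 windows are shown, and the lower calls are described below. Capitals mark TCACGTGA, or in Lamp1 one of its copies of CACGTG, and each is written along the gene's own strand.
Ctsd, chr7:142387893-142387952, minus strand: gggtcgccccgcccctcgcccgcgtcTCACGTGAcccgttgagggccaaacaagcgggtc
Atp6v1a, chr16:44139358-44139417, minus strand: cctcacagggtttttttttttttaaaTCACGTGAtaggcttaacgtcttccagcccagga
Gla, chrX:134601167-134601226, minus strand: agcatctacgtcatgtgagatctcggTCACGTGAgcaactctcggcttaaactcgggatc
Mcoln1, chr8:3500447-3500506, plus strand: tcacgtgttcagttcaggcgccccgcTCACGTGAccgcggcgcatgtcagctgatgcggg
Atp6v0d1, chr8:105566050-105566079, minus strand: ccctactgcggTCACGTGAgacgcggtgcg
Lamp1, chr8:13159090-13159147, plus strand: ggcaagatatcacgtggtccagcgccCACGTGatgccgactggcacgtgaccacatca
Positions count from the RefSeq gene start that sets each window. The capitals begin at −99 in Ctsd, −132 in Atp6v1a, −195 in Gla, −46 in Mcoln1, −4 in Atp6v0d1 and −45 in Lamp1. The GENCODE spans printed below for Ctsd and Gla start at other bases, so these distances do not apply to those spans. The Lamp1 window holds CACGTG 4 times, and the Gla window holds a second TCACGTGA at −228.

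TCACGTGA was present in 7 of the 32 windows (21.9%), against 1.12% of the windows of 27025 genes. Those 7 were Atp6v1a, Atp6v0d1 and Atp6v0e of the pump, the proteases Ctsd and Ctsa, the glycosidase Gla and the calcium channel Mcoln1. The shorter CACGTG was in 10 of 32 (31.2%), against 8.09% of all genes. A longer palindrome, TCACGTGA with a G before it and a C after it, was in 0 of 32, against 0.37% of all genes. The motifs read the same on either strand, and each longer one contains the shorter. A match says that the letters are present, and whether a protein was bound there was not measured.

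The first comparison asked how the proton pump stands to the enzymes that need it in each leukocyte class. Monocytes had more hydrolase UMIs for each pump UMI than neutrophils did. Summed over their genes, hydrolases gave 0.622, 0.5003, 0.559 and 0.435 UMIs for each pump UMI in neutrophils, with intervals of 0.612 to 0.633, 0.491 to 0.510, 0.552 to 0.566 and 0.427 to 0.443. Classical monocytes gave 1.57, 1.62, 1.52 and 1.63, and nonclassical monocytes, which patrol vessel walls, gave 1.77, 1.80, 1.58 and 2.11. In all 4 libraries each monocyte value was more than double the neutrophil value of the same library, with no overlap between the classes.

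That difference lay in the hydrolases more than in the pump. Pump transcripts summed to 4416, 3438, 3531 and 2654 CPM in neutrophils and to 3376, 3209, 3542 and 3057 CPM in classical monocytes, so that the ranges overlapped. Hydrolases summed to 2748, 1720.1, 1973 and 1154 CPM in neutrophils and to 5309, 5195, 5395 and 4980.1 CPM in classical monocytes, without overlap. Since a sum can rest on its most abundant gene, the ratio was taken again without it: leaving out Ctsd gave 0.383, 0.336, 0.346 and 0.319 in neutrophils, and leaving out Ctss gave 1.05, 1.06, 1.06 and 1.04 in classical monocytes.

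Lymphocytes, which had few lysosomal transcripts, stood on the neutrophil side of this ratio. B cells gave 0.690, 0.781, 0.625 and 0.730 hydrolase UMIs per pump UMI, natural killer (NK) cells 0.549, 0.523, 0.511 and 0.443, and T cells 0.437, 0.431, 0.429 and 0.466. Pump transcripts were still well represented in them, at 1264 to 1396 CPM in B cells and 883 to 1061 CPM in T cells. The 40 members made up 0.185% to 0.201% of all UMIs in T cells, 0.237% to 0.255% in NK cells and 0.259% to 0.264% in B cells, against 0.525% to 0.891% in neutrophils and 1.22% to 1.37% in classical monocytes.

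**Figure D1:**
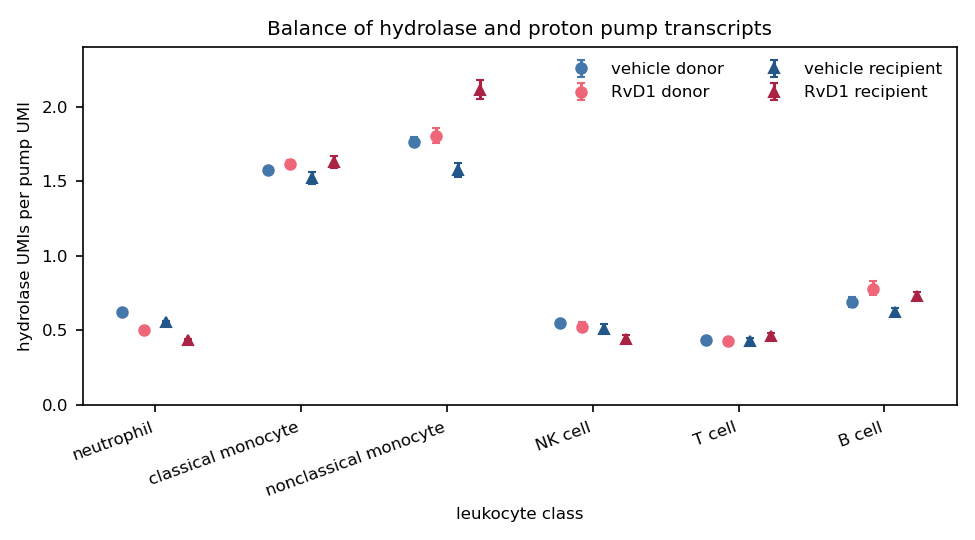
Hydrolase UMIs per pump UMI (vertical axis, a ratio of summed UMIs) in 6 leukocyte classes, with 1 point for each library and bars for the 95% counting interval. Monocyte points lie above 1.5 in every library, and neutrophil, NK and T cell points lie below 0.63.

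Soluble and membrane proteins set the classes apart in other ways. Psap, Npc2 and Grn together gave 343, 266, 348 and 319.7 CPM in neutrophils against 3139, 2672, 3298 and 2941 CPM in classical monocytes. The membrane proteins did not follow: they summed to 1399.8, 1172, 1223 and 1127 CPM in neutrophils and to 1405, 1258, 1507 and 1238 CPM in classical monocytes.

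Taken gene by gene over the 6 classes with enough cells in all 4 libraries, classical monocytes had the highest median level for 18 members, neutrophils for 15 and nonclassical monocytes for 7. No member was highest in B, NK or T cells. For 10, 6 and 3 of these genes, respectively, the top class did not overlap the class with the next median in the 4 libraries. Overlap with a class of lower median remained possible, as for Ctsd between neutrophils and nonclassical monocytes. The matching shares over all genes were not computed, so these counts are not read as a result about the set. Neutrophils led for 9 of the 16 pump genes but for 3 of the 15 hydrolases, whereas classical monocytes led for 6 pump genes and 7 hydrolases and nonclassical monocytes for 1 and 5. All 3 soluble proteins were highest in classical monocytes.

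**Figure D2:**
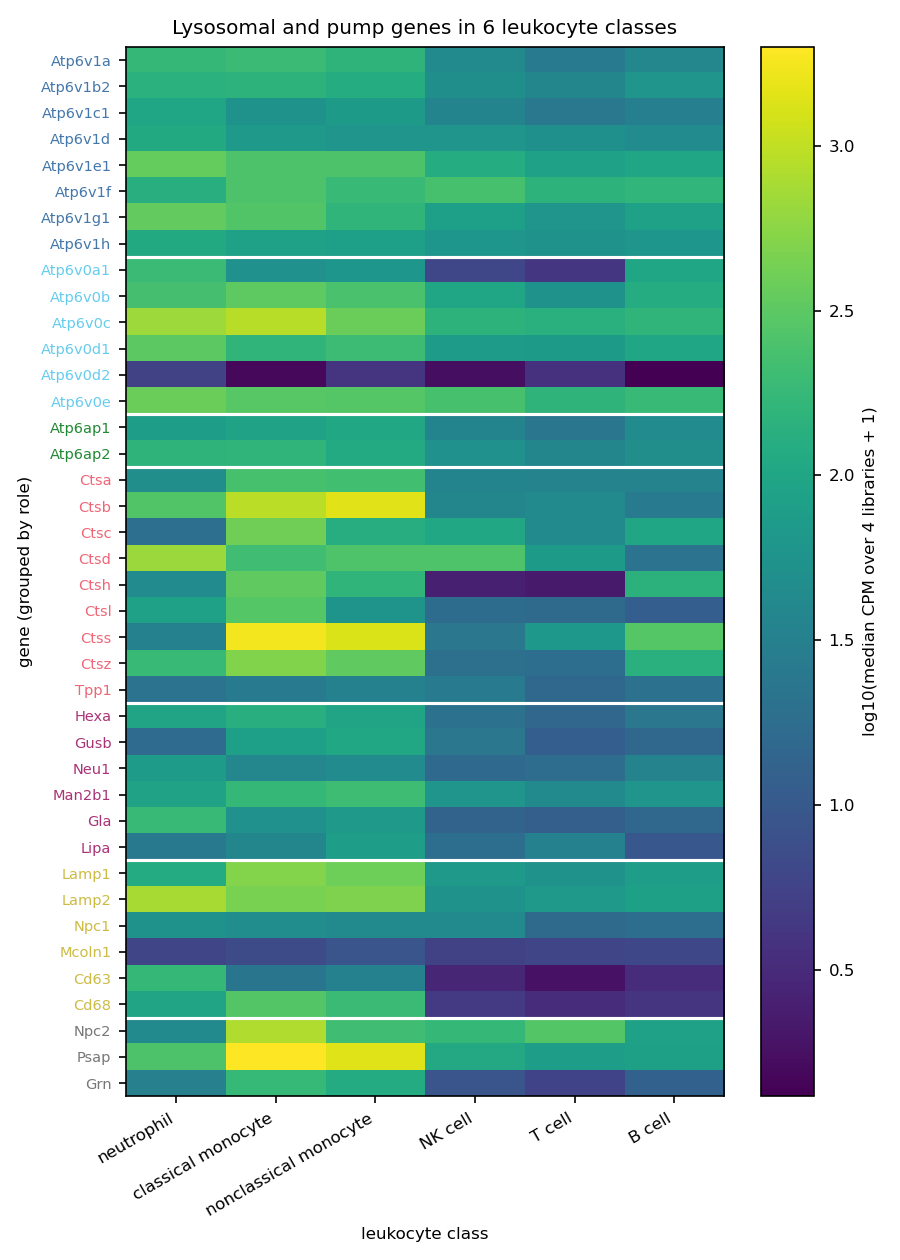
Heat map of the median level over 4 libraries, as log10(CPM + 1), of the 40 members (rows, grouped by role and separated by white lines) in 6 leukocyte classes (columns). Most pump genes are present in every class, while Atp6v0d2 is scarce in lymphocytes. Of the 15 hydrolases, 7 are highest in classical monocytes, 5 in nonclassical monocytes and 3 in neutrophils, and all 3 soluble proteins are highest in classical monocytes.

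Genes whose levels did not overlap between neutrophils and classical monocytes were then counted. Neutrophils were above in all 4 libraries for 7 of 40 members, while 21% of all genes compared were above. Those 7 were Atp6v0a1, Atp6v0d1, Ctsd, Neu1, Gla, Lamp2 and Cd63. Classical monocytes were above for 16 of 40, with a background of 53.3%: 9 of 15 hydrolases, all 3 soluble proteins, 2 of 6 membrane proteins and 2 of 16 pump genes. Neither share exceeds its background, so the counts show which genes differ and not that the set as a whole leans to 1 side.

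Among the pump genes, Atp6v0a1 varied 60.5-fold between its highest and its lowest class. It encodes an isoform of the large V0 subunit that steers where the pump is placed. Its level was 188, 195, 200.5 and 177 CPM in neutrophils, 48.6 to 58.9 CPM in classical monocytes, and 118, 84.4, 109 and 68.9 CPM in B cells. T cells held 1.40 to 4.10 CPM and NK cells 3.96 to 13.6 CPM. All B cell values thus exceeded all classical monocyte values, which held for no other of the 39 members compared (1 of 39, with a background of 41.6%).

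Other pump genes were spread more evenly. Atp6v0c, the proteolipid that forms most of the proton-carrying ring, stood at 879, 752, 594 and 455 CPM in neutrophils, at 1003, 801, 1016 and 799.9 CPM in classical monocytes and at 110.2 to 159 CPM in T cells. Atp6v1f, a small V1 subunit, varied 1.93-fold between its highest and its lowest class, and Atp6v1h, which couples V1 to V0, varied 2.07-fold. The pump gene Atp6v0d2 varied 14.8-fold. Outside the pump the spread ran from 1.85-fold for Mcoln1 and 2.20-fold for Tpp1 to 276-fold for Ctsh. Cd63, Cd68, Ctss and Ctsb varied 199.7-fold, 122-fold, 76.7-fold and 58.4-fold.

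The cathepsins divided the classes. Ctss, the protease that trims the invariant chain of MHC class II, reached 1750.3, 1787, 1629 and 1797 CPM in classical monocytes and 1217, 1392, 1109 and 1407 CPM in nonclassical monocytes. B cells, which also present antigen, had 266, 303, 269 and 311 CPM of it, while neutrophils had 51.0, 34.5, 29.3 and 26.5 CPM. Ctsh, an aminopeptidase, was at 252, 354, 376 and 319 CPM in classical monocytes and at 127, 157, 136 and 155 CPM in B cells, but at most 2.61 CPM in T cells and 2.70 CPM in NK cells. Of the lymphocytes, B cells thus held the most Ctss and Ctsh in each library.

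Ctsd, an aspartic protease, had the reverse order among myeloid cells. Neutrophils held 1057, 565, 751 and 308 CPM, classical monocytes 239, 181, 275 and 148 CPM, and NK cells 252, 295, 274 and 213 CPM. B cells were lowest, at 15.1 to 22.0 CPM. NK cells and classical monocytes overlapped, and neutrophils lay above both in all 4 libraries. Nonclassical monocytes, whose values are given below, were lower than neutrophils within each library, but the ranges over libraries overlapped.

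Ctsc activates the serine proteases of neutrophil and lymphocyte granules. Its transcript was at 294, 484, 487 and 331 CPM in classical monocytes, 88.4 to 107 CPM in NK cells, 90.9 to 103 CPM in B cells and 36.5 to 49.9 CPM in T cells. Neutrophils held only 18.2, 31.6, 10.4 and 17.9 CPM, which placed them below each lymphocyte class in each library. Ctsb, a cysteine protease, was highest in nonclassical monocytes at 1724, 1394, 1177 and 1507 CPM, followed by classical monocytes at 1251, 743, 984 and 907 CPM and neutrophils at 396, 292, 256 and 154 CPM. Nonclassical monocytes were above classical ones in each library, although the ranges over libraries overlapped.

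Among soluble proteins Psap, the precursor of the saposins that help to degrade sphingolipids, stood at 2198, 1691, 2071 and 1917 CPM in classical monocytes and at 264, 197, 274 and 253 CPM in neutrophils. Npc2, which hands cholesterol to the membrane protein Npc1, was at 781, 794, 1044 and 859.6 CPM in classical monocytes and at 211, 252, 313 and 356 CPM in T cells, but at only 44.4, 47.4, 38.5 and 39.5 CPM in neutrophils. Neutrophils were therefore below T, NK and B cells for Npc2 in every library. With Ctsc and Ctss it made up the 3 of 40 members for which T cells exceeded neutrophils throughout, against a background of 58.1%.

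Among the membrane proteins neutrophils had the highest median for 3 of 6. Lamp2, a major glycoprotein of the lysosomal membrane and part of chaperone-mediated autophagy, was at 751, 749.8, 763 and 800.4 CPM in neutrophils and at 414 to 565 CPM in classical monocytes. Cd63, a tetraspanin found in azurophilic granules and late endosomes, was at 214, 189.5, 146 and 156 CPM in neutrophils and at 37.3, 28.2, 13.8 and 14.4 CPM in classical monocytes, and stayed at or below 3.99 CPM in lymphocytes. Cd68, the macrophage sialomucin, had the other order, with 308, 261, 267 and 297 CPM in classical monocytes, 104, 89.8, 97.1 and 80.4 CPM in neutrophils and at most 4.99 CPM in lymphocytes. Lamp1, close in structure to Lamp2, likewise was higher in classical monocytes, at 495, 515, 599.7 and 469 CPM, than in neutrophils, at 215, 105, 134 and 70.5 CPM.

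Nonclassical monocytes stood to neutrophils much as classical ones did, above them for 15 of 40 members (background 57.1%) and below them for 7 (background 14.9%), the latter being Atp6v1g1, Atp6v0a1, Ctsl, Neu1, Gla, Lamp2 and Cd63. Monocyte classes differed from each other mainly by more transcripts in the classical class. Classical monocytes were above nonclassical monocytes in all 4 libraries for 13 of 40 members, with a background of 15.2%, and below for 3 of 40, with a background of 26.4%. The 13 comprised 3 pump genes, 5 hydrolases, 2 membrane proteins and all 3 soluble proteins. The 3 were the glycosidase Gusb, the acid lipase Lipa and Mcoln1.

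Against lymphocytes, myeloid cells had more of most members. Classical monocytes exceeded T cells for 36 of 40 members (background 24.7%), NK cells for 32 of 39 (background 22.5%) and B cells for 33 of 39 (background 24.9%). Nonclassical monocytes exceeded them for 35 of 40 (background 26.1%), 31 of 39 (background 23.1%) and 33 of 39 (background 25.5%). For neutrophils the counts were 29 of 40 (background 22.1%), 25 of 40 (background 22%) and 26 of 40 (background 22.8%). Shares of this size are well over their backgrounds. Depth per cell differed between the classes, with medians of 4874 to 5344 UMIs in neutrophils and 11672 to 15339 UMIs in classical monocytes, and its part in these counts was not tested. S100a8 and S100a9, the dominant neutrophil transcripts, summed to 101, 656, 1187 and 427 CPM in classical monocytes and to between 65 and 1778 CPM in lymphocytes, and how much of this is carried-over neutrophil RNA was not tested.

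The second comparison set RvD1 libraries against vehicle libraries within neutrophils, separately for donor and recipient cells. A gene is called lower or higher here when it differs by at least 1.5-fold the same way in both origins, which is a rule of size and not a test. In neutrophils 14 of the 40 members were lower with RvD1 and 1 was higher, while of all 6511 genes described 9.34% were lower and 4.82% were higher. The median log2 ratio of the 40 members was −0.43 in donor and −0.34 in recipient cells, against 0.02 and 0.11 for all genes, and 27 of 40 members were below 0 in both origins while 7 were above 0 in both.

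The lower genes came from 3 of the 4 role groups. Of the pump genes 6 of 16 were lower: 4 of 8 in V1, 2 of 6 in V0 and 0 of 2 accessory subunits. Of the hydrolases 5 of 15 were lower and 1 was higher, with 2 of 9 proteases and 3 of 6 enzymes acting on glycans and lipids among the lower ones. Of the membrane proteins 3 of 6 were lower, and of the soluble proteins 0 of 3. The pump's median log2 ratio was −0.29 and −0.40, and that of the hydrolases −0.44 and −0.15.

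Within V1, Atp6v1h and Atp6v1c1 differed most. Atp6v1h (chr1:5070018-5162529, plus strand, GRCm38), the subunit that couples ATP hydrolysis to proton flow, was at 218, 54.9, 165 and 35.2 CPM in neutrophils, from 1767, 548, 3162 and 536 UMIs. Both vehicle libraries were high and both RvD1 libraries low, and the log2 ratios were −1.99 (interval −2.13 to −1.85) between the donor libraries and −2.22 (−2.36 to −2.09) between the recipient libraries. Atp6v1c1 (chr15:38661933-38692446, plus strand), a stalk subunit that takes part in joining V1 to V0, was at 206, 63.6, 133 and 32.0 CPM, with log2 ratios of −1.70 (−1.83 to −1.56) and −2.06 (−2.20 to −1.92). The groups did not overlap for either gene.

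Atp6v1a, the catalytic subunit, was at 286, 151, 194 and 122 CPM, with log2 ratios of −0.92 (−1.01 to −0.83) and −0.68 (−0.76 to −0.60). Atp6v1d, a shaft subunit named after its values were seen to complete the count, was at 169, 98.3, 123 and 61.9 CPM, with ratios of −0.78 and −0.99. The noncatalytic partner of Atp6v1a, Atp6v1b2, lay just under the rule at 212, 144, 138 and 98.2 CPM (−0.56 and −0.49). Other V1 subunits did not share the pattern: Atp6v1f was at 136, 136, 123 and 128 CPM (0.00 and 0.06), and Atp6v1g1 at 212, 338, 349 and 389 CPM (0.67 and 0.16). Subunits of 1 complex thus lay both far below and above their vehicle level.

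In V0 the d subunit, which links the rotor to V1, was lower in both its forms. Atp6v0d1, the form found in most tissues, was at 441, 259, 362 and 200.3 CPM, with log2 ratios of −0.77 (−0.84 to −0.69) and −0.86 (−0.92 to −0.79). Atp6v0d2 (chr4:19876841-19922605, minus strand), a form known from macrophages and osteoclasts, was at 25.2, 2.60, 6.45 and 0.854 CPM, from 205, 26, 124 and 13 UMIs. Its log2 ratios of −3.28 (−3.92 to −2.68) and −2.92 (−3.87 to −2.09) were the largest of the set, and both RvD1 levels lay within the 0 to 4.20 CPM seen in lymphocytes. The summed level of 9 alveolar macrophage markers in neutrophils was 318, 139, 199 and 80.3 CPM, with 1 or 2 of them above 10 CPM and 0, 2, 4 and 3 of them at 0. Alveolar macrophages held 1090.3 CPM of Atp6v0d2 in the vehicle donor library, and the part of their RNA in the neutrophil values was not tested.

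The rest of V0 and the accessory subunits were not called. Atp6v0c had ratios of −0.22 and −0.39, Atp6v0e, a small ring-associated subunit, −0.36 and −0.30, Atp6v0b 0.03 and −0.09, and Atp6v0a1 0.05 and −0.18. Atp6ap1, an assembly factor, was at 84.3, 73.5, 78.8 and 74.0 CPM, and Atp6ap2, the prorenin receptor, at 202, 177, 127 and 115 CPM. Atp6v1e1, a stalk subunit of V1, was at 418, 356, 340.1 and 254 CPM (−0.23 and −0.42).

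**Figure D3:**
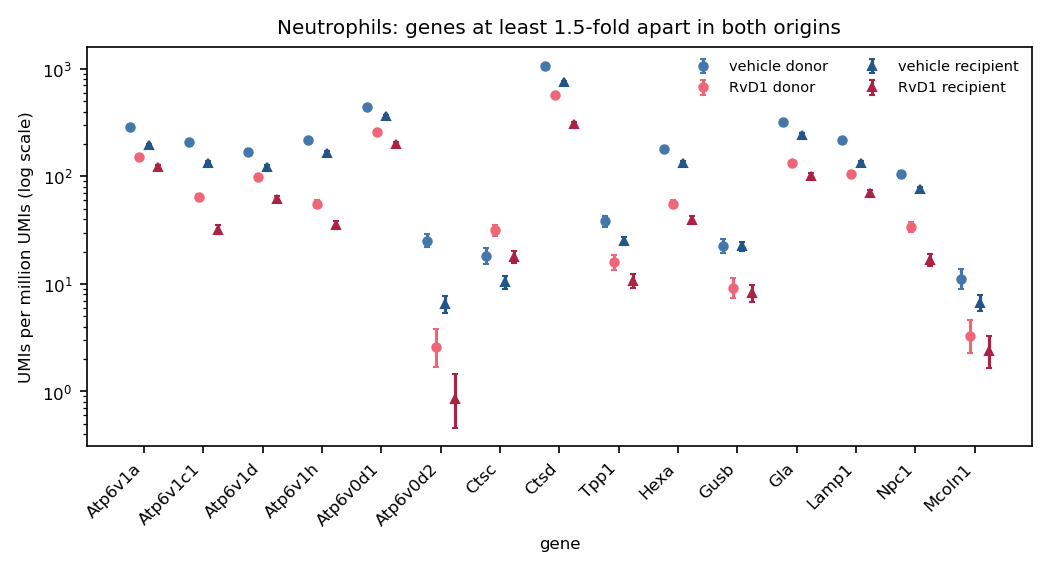
Level in neutrophils (CPM, log axis) of the 15 members that differed at least 1.5-fold the same way in both origins, with 1 point for each of the 4 libraries and bars for the 95% counting interval. Both vehicle points lie above both RvD1 points for 14 genes, and Ctsc has the other order within each origin.

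Among hydrolases, Ctsd (chr7:142375911-142388038, minus strand) carried the most UMIs: 8583, 5640, 14436 and 4692. Its levels of 1057, 565, 751 and 308 CPM gave log2 ratios of −0.90 (−0.95 to −0.85) and −1.29 (−1.33 to −1.24). The vehicle libraries exceeded both RvD1 libraries. Tpp1, a tripeptidyl peptidase, was lower at 38.0, 15.8, 25.1 and 10.6 CPM (−1.27 and −1.24).

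Of the enzymes that act on glycans and lipids, Hexa, Gla and Gusb were lower. Hexa (chr9:59539540-59565109, plus strand), the alpha subunit of the hexosaminidase that degrades gangliosides, was at 179.7, 55.8, 134 and 39.6 CPM, with log2 ratios of −1.69 (−1.83 to −1.55) and −1.76 (−1.89 to −1.63). Gla (chrX:134588149-134601125, minus strand), alpha-galactosidase, was at 323, 132, 244 and 101 CPM, with ratios of −1.29 (−1.38 to −1.19) and −1.27 (−1.35 to −1.19). Gusb, beta-glucuronidase, was at 22.7, 9.22, 22.3 and 8.14 CPM (−1.30 and −1.45). For these 3 enzymes both vehicle libraries exceeded both RvD1 libraries. The sialidase Neu1, at 71.9, 73.6, 57.0 and 85.0 CPM (0.03 and 0.58), the mannosidase Man2b1 (−0.07 and 0.21) and the lipase Lipa (0.27 and −0.08) were not called.

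Ctsc was the 1 member that was higher. Its levels of 18.2, 31.6, 10.4 and 17.9 CPM gave log2 ratios of 0.79 (0.51 to 1.08) and 0.79 (0.52 to 1.06), although the vehicle donor and RvD1 recipient libraries were level. Other cathepsins lay on either side of the rule: Ctsb at −0.44 and −0.73, Ctsz at 295, 201, 159 and 99.97 CPM (−0.55 and −0.67), Ctss at −0.56 and −0.15, and Ctsa at 50.2, 37.1, 48.5 and 48.0 CPM (−0.44 and −0.02).

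The membrane proteins divided sharply. Npc1, the cholesterol exporter, was at 104, 34.0, 75.5 and 16.7 CPM, with log2 ratios of −1.62 (−1.80 to −1.44) and −2.18 (−2.38 to −1.99). Lamp1 (chr8:13159161-13175338, plus strand) was at 215, 105, 134 and 70.5 CPM, with ratios of −1.03 (−1.14 to −0.92) and −0.92 (−1.03 to −0.82). Mcoln1, the lysosomal calcium channel, was at 11.2, 3.31, 6.66 and 2.36 CPM (−1.76 and −1.49), from 91, 33, 128 and 36 UMIs, and lymphocytes held 2.56 to 7.78 CPM of it. Lamp2, by contrast, stayed level at 751, 749.8, 763 and 800.4 CPM, with ratios of 0.00 (−0.05 to 0.05) and 0.07 (0.03 to 0.10). Cd63 (−0.17 and 0.10) and Cd68 (−0.21 and −0.27) were not called.

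The soluble proteins gave smaller ratios: −0.42 and −0.11 for Psap, −0.70 and −0.44 for Grn, and 0.09 and 0.04 for Npc2. The balance between role groups also shifted, except that soluble proteins per pump UMI were level between the donor libraries. Membrane proteins gave 0.317, 0.341, 0.346 and 0.425 UMIs for each pump UMI in neutrophils, and soluble proteins 0.078, 0.077, 0.099 and 0.120. The RvD1 recipient library was the highest in both measures and the lowest for hydrolases per pump UMI.

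**Figure D4:**
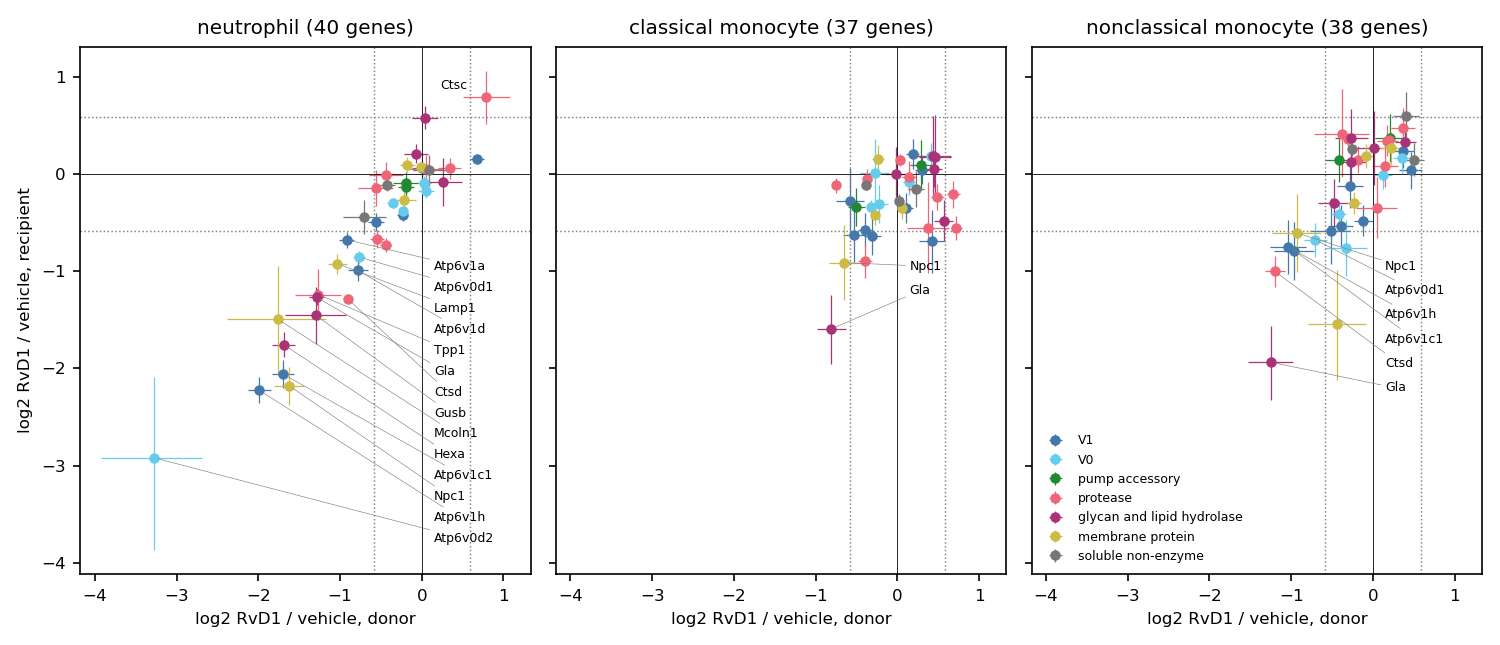
RvD1-to-vehicle log2 ratio in donor cells (horizontal axis) against recipient cells (vertical axis) for 40 members in neutrophils, 37 in classical monocytes and 38 in nonclassical monocytes, with dotted lines at 1.5-fold. In neutrophils 14 genes lie beyond the lines at lower left and 1 at upper right, and the corresponding counts are 2 and 0 in classical and 6 and 0 in nonclassical monocytes.

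Neutrophils were not uniform, and the members' levels differed between their clusters. Cells were clustered without the 40 members. Cluster 1, led by genes that include Fnip2, Cc2d2b and Pnpla7, held 844, 194, 1288 and 56 cells, or 59.7%, 10.2%, 38.6% and 1.84% of the neutrophils of each library. In it the 40 members summed to 10081, 11217, 8454 and 8298 CPM, and in the other 5 neutrophil clusters with enough cells they summed to 4960 to 8359 CPM. Fnip2 is a leading gene of cluster 1 and was itself lower in the RvD1 libraries, so the shares of cells are given as context and are not read as a result.

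Within cluster 1 the members went both ways. Their median log2 ratio there was 0.04 in donor and 0.03 in recipient cells, against −0.02 and 0.04 for all genes. Ctsd was at 1268, 1474, 931 and 725 CPM, Lamp1 at 261, 266, 201 and 171 CPM, Npc1 at 136, 123, 117 and 120.3 CPM and Gla at 391, 359, 324 and 225 CPM. Atp6v1h was lower with RvD1 in both origins, at 285, 172, 275 and 159 CPM. Atp6v0d2 rested on 193, 7, 97 and 1 UMIs there, too few for a ratio between the recipient libraries.

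Cluster 0, present in all 4 libraries with 157, 351, 1099 and 1002 cells, had lower levels and a larger difference. Its members' median log2 ratio was −0.26 in donor and −0.16 in recipient cells, against 0.00 and 0.08 for all genes. Ctsd was at 845, 543, 677 and 336 CPM, Npc1 at 71.2, 29.6, 54.0 and 14.0 CPM, Atp6v1h at 94.9, 38.8, 85.0 and 29.6 CPM, and Atp6v1c1 at 99.3, 36.2, 66.9 and 26.2 CPM. In cluster 12, marked by the interferon-induced genes Rsad2 and Ifit1, the median was −0.31 and −0.34 against −0.08 and 0.05, and Atp6v1h was at 185, 50.1, 169.9 and 20.6 CPM.

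**Figure D5:**
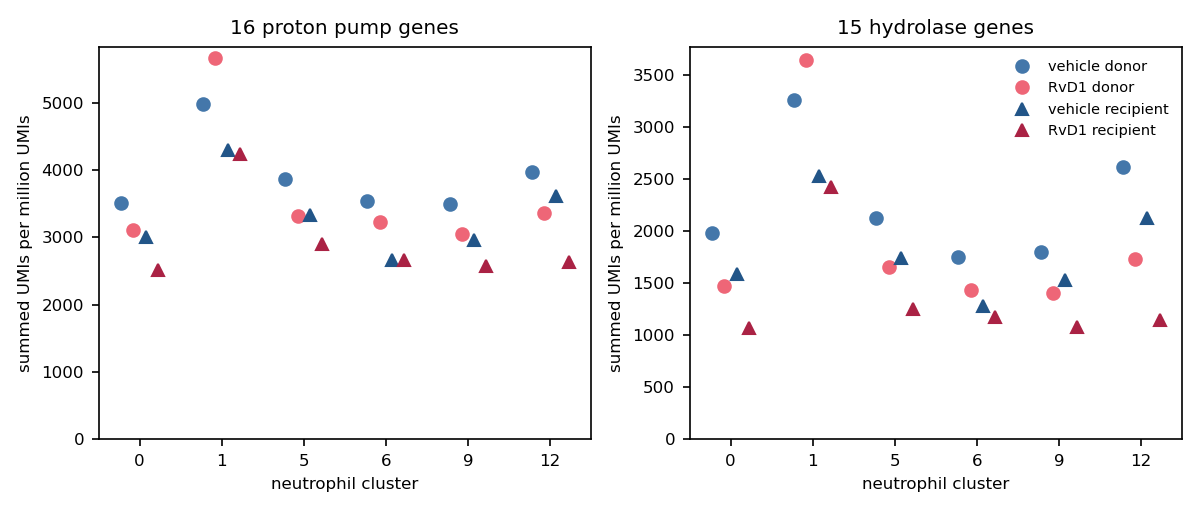
Summed CPM of the 16 pump genes (left) and the 15 hydrolases (right) in 6 neutrophil clusters, with 1 point for each library. Cluster 1 reaches its highest sums in the RvD1 donor library, 5674 and 3640 CPM.

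Leaving out cluster 1 altogether lowered the count. Of 38 members then described 9 were lower and 1 was higher, against 5.39% and 3.27% of 5715 genes. The 9 were Atp6v1c1, Atp6v1h, Atp6v0d1, Ctsd, Tpp1, Hexa, Gusb, Gla and Npc1, all of them among the 14 above. Atp6v1h kept ratios of −1.48 and −1.56 and Npc1 of −1.25 and −1.77. Atp6v1a (−0.84 and −0.57), Atp6v1d (−0.39 and −0.66) and Lamp1 (−0.74 and −0.43) fell short of the rule, and Atp6v0d2 and Mcoln1 had too few UMIs to be described. Ctsc was higher by 1.24 and 1.19. The pump's median log2 ratio moved to −0.12 and −0.13.

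Other cells' transcripts in the neutrophil sums moved with treatment in part. Markers of classical monocytes (6 genes) summed to 432, 331, 198 and 163 CPM in neutrophils, those of nonclassical monocytes (8 genes) to 449, 457, 395 and 453 CPM, and those of T cells (7 genes, none above 10 CPM) to 21.3, 14.3, 18.6 and 17.9 CPM. S100a8 and S100a9 summed to 64454, 98762, 106140 and 106797 CPM, with the vehicle donor library apart from the others. Their part in the members' ratios was not tested.

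Promoter letters and the neutrophil ratios can be set side by side. Of the members with a window, TCACGTGA was in 5 of the 10 that were lower with RvD1 and in 2 of the 22 that were not, and CACGTG in 6 of 10 and 4 of 22. Over all genes described in neutrophils that had a window, TCACGTGA was in 2.90%, in 9.09% of the 473 that were lower and in 0.402% of the 249 that were higher. For CACGTG the shares were 12.8%, 23.5% and 6.83%, and for the longest palindrome 1.15%, 2.96% and 0%. The motifs were thus more frequent among all lower genes, which include these members, than among all genes described, as a description of these windows.

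Genes of the same organelle outside the 40 were read from lists drawn up for the pathway. The list of other lysosomal hydrolases is not reported here. In the nutrient-sensing machinery of the lysosomal surface, 6 of 17 genes were lower in RvD1 neutrophils and 1, the GTPase Rraga, was higher. Of all genes described 9.34% were lower and 4.82% were higher. The median log2 ratio of the 17 genes was −0.40 and −0.51. Flcn, the folliculin GTPase-activating protein, was at 92.7, 31.2, 57.1 and 15.96 CPM (−1.57 and −1.84). Its partners Fnip1 and Fnip2 were at 815, 368, 689 and 245 CPM (−1.15 and −1.49) and at 747, 221, 398 and 66.6 CPM (−1.76 and −2.58). Rptor, the mTORC1 scaffold, was at 60.6, 13.2, 31.7 and 13.3 CPM (−2.20 and −1.26).

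Other lysosomal membrane proteins and transporters gave 5 of 14 lower and 0 higher. Cln3, the protein affected in a juvenile form of neuronal ceroid lipofuscinosis, was at 269, 118, 205 and 89.4 CPM (−1.18 and −1.20), the cystine exporter Ctns at 18.8, 8.62, 9.16 and 5.52 CPM (−1.13 and −0.73), and the chloride-proton exchanger Clcn7 at 25.9, 14.7, 16.7 and 7.62 CPM (−0.81 and −1.13). Of 9 other pump genes 1 was lower, the a3 isoform Tcirg1, at 17.5, 10.7, 11.9 and 6.63 CPM. The sorting receptor Igf2r (1 of 6) was at 135, 64.2, 87.7 and 34.0 CPM (−1.07 and −1.37), and the cathepsin inhibitor Cstb (1 of 7) at 766, 374, 528 and 263 CPM (−1.03 and −1.003). With 9.34% of all genes lower, 1 gene called in lists of this size is not read as a result about the list.

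In monocytes of the same libraries the differences were fewer. Of 38 members described in nonclassical monocytes 6 were lower with RvD1 and 0 higher, against 5.16% and 1.99% of all genes, and all 6 were among the 14 lower in neutrophils. The members' median log2 ratio was −0.25 in donor and 0.10 in recipient cells, against −0.04 and 0.10 for all genes. Neutrophils and monocytes of a group come from 1 library, so that the overlap is not independent.

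Ctsd was at 435, 189, 333 and 166 CPM in nonclassical monocytes (−1.20 and −1.002) and Gla at 94.0, 39.5, 93.7 and 24.5 CPM (−1.25 and −1.93). The pump genes among the 6 were Atp6v1c1 at 96.5, 49.6, 89.3 and 51.6 CPM (−0.96 and −0.79), Atp6v1h at 125, 61.1, 99.3 and 59.0 CPM (−1.04 and −0.75) and Atp6v0d1 at 256, 157, 241 and 151 CPM (−0.71 and −0.68). Npc1 was at 67.1, 35.3, 46.7 and 30.7 CPM (−0.93 and −0.61). Both vehicle libraries exceeded both RvD1 libraries for all 6 genes. Neutrophil markers summed to 10177, 12542, 31403 and 7424 CPM in this class, many of them in 1 cluster with 221, 74, 96 and 52 cells. Without that cluster the donor log2 ratios were −0.51 for Atp6v1c1, −0.51 for Atp6v1h, −0.50 for Atp6v0d1 and −0.51 for Npc1. These fell short of the 1.5-fold rule, while Ctsd (−1.08) and Gla (−1.19) stayed past it in donor cells. The part of neutrophil transcripts in these ratios was not tested.

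Classical monocytes showed 2 of 37 members lower and 0 higher, against 2.66% and 1.02% of all genes. Gla was at 65.8, 37.6, 90.4 and 29.97 CPM, with log2 ratios of −0.81 (−0.99 to −0.63) and −1.59 (−1.95 to −1.24). Npc1 was at 56.0, 35.7, 56.4 and 29.97 CPM, with ratios of −0.65 (−0.84 to −0.46) and −0.91 (−1.30 to −0.53). The medians were 0.03 and −0.24, against −0.04 and −0.05 for all genes. Several cathepsins went opposite ways in the 2 origins, among them Ctsc (0.72 and −0.56) and Ctsl (0.69 and −0.21). Flcn, Fnip1 and Fnip2 were 3 of 16 nutrient-sensing genes that were lower here, with Fnip1 at 193, 104, 249 and 96.6 CPM and Flcn at 40.6, 16.8, 41.4 and 21.1 CPM. Gla and Npc1 were thus lower in all 3 myeloid classes and in both origins, although the Npc1 call was lost in 3 of 8 settings in classical monocytes and in 3 of 9 in nonclassical monocytes.

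Dendritic cells, without the plasmacytoid ones, were numerous enough in the donor libraries only, where 2 of 38 members were higher and 1 was lower with RvD1 (background 4.59% and 10.2%). No member was called in lymphocytes. The counts were 0 of 33 members in T cells (background 1.81% lower and 1.11% higher), in B cells 0 of 30 (1.24% and 0.75%), while NK cells had 0 of 27 (1.4% and 0.927%). The members' median log2 ratios lay between −0.09 and 0.04 over these 3 classes and both origins. Lower UMI counts left 7 to 13 members undescribed there, and whether the classes differ in response was not tested.

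The third comparison set recipient against donor cells at the same treatment. In neutrophils 6 of 38 members were lower in recipient cells in both treatments and 0 were higher, against 3.61% and 1.36% of 6844 genes. The 6 were Atp6v1c1, Atp6ap2, Ctsb, Ctsc, Ctsz and Lipa, so that the hydrolases, at 4 of 15, outnumbered the pump genes, at 2 of 15. Lipa, the acid lipase, was at 32.5, 39.1, 16.6 and 15.7 CPM, with log2 ratios of −0.96 with vehicle and −1.32 with RvD1. Ctsb had ratios of −0.63 and −0.92, Ctsz −0.89 and −1.01, and Ctsc −0.82 and −0.82. For Lipa, Ctsz, Ctsb and Atp6ap2 both donor libraries exceeded both recipient libraries, and for Atp6v1c1 and Ctsc the groups overlapped.

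The members' median log2 ratio was −0.39 and −0.38, against −0.12 and −0.02 for all genes, and 28 of 38 members were below 0 in both treatments. The summed level of alveolar macrophage markers was also higher in donor neutrophils within each treatment, as given above, and its part was not tested. Atp6v0d2 was described with vehicle only, where it was lower in recipient cells by a log2 ratio of −1.97 (−2.30 to −1.64). Classical monocytes had 1 of 38 members lower in recipient cells, Cd63 (−1.44 and −0.97), and 0 higher, against 0.769% and 0.275% of all genes. Nonclassical monocytes had 0 of 38 members lower or higher, against 0.348% and 0.0475%. T cells had Ctsb and Ctsz lower (2 of 33) and 0 higher, against 10.5% and 1.23%. NK cells had 0 of 28 (0.0955% lower and 0.0159% higher) and B cells 0 of 32 (0.759% and 0.152%).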

How the data were processed

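The deposited values were counts: whole-number UMI counts per gene and barcode, made by the authors with Cell Ranger 6.1.1 (vehicle) or 7.0.1 (RvD1), per the file headers, from 10x 3' v3 libraries. The genome build mm10 and the tool Seurat 4.0.0 are named, per the submitters' processing notes. The setting for intronic reads is not given here by any source. The 40 members and the pathway and marker lists were chosen with earlier results of these data known.

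Barcodes needed 200 genes or more and a mitochondrial share of UMIs not above 10%, and doublets were called within each library from simulated doublets and removed (2.32%, 1.34%, 1.50% and 3.65%). Cells were clustered with scanpy 1.11.5 and leidenalg 0.10.2 (Python 3.11.15) on up to 2000 variable genes per library, without the 40 members, with 30 components, 15 neighbours and resolution 1. The 27 clusters were named from markers, and haemoglobin genes, left out of the leading genes after the clusters were seen, did not count toward a name. For every class and library UMIs were summed and divided by all UMIs of that sum (CPM). Levels needed 20 cells, ratios 100 cells in both libraries and 100 UMIs over both, and values within neutrophil clusters 50 cells. Intervals were exact, binomial for the ratio of 2 counts and Poisson for a level. The counting and interval code was tested on simulated data. At 3' ends a UMI does not compare levels between genes, so levels are compared only within a gene, and sums only between classes and libraries. No p-value was computed.

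Members are given per library when they were called in a class (at most 10), when they had the most neutrophil UMIs of their role group, or when they were on a list of 17 symbols. Other members named, such as Atp6v1e1, Atp6v0a1, Ctsh, Neu1 and Lipa, were chosen after their values were seen. Promoter windows came from RefSeq, and gene spans from GENCODE M21 on GRCm38. Alternatives were the library scaling, the cell filter, the UMI minimum, the fold, doublets kept, each cell weighted equally, totals without mitochondrial and ribosomal genes, a finer clustering, clustering with the members, each library clustered alone, a ratio with its trend on intron length subtracted, and leaving out a library. Chosen after seeing the data were those that leave out cluster 1 or the monocyte cluster rich in neutrophil transcripts. One treatment per software version and 1 library per group limit every comparison.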

Additional observations from a re-analysis of the deposited data

How the results depend on the processing

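No paired analysis was possible because each group is 1 library and the labels carry no replicate numbers. No member called between RvD1 and vehicle changed sign under the alternatives run, nor did the pump and hydrolase medians in neutrophils. Some members that were not called did change sign. Without cluster 1 the donor neutrophil log2 ratio was 0.13 for Ctsb and 0.20 for Cd68, both negative with that cluster included. The 14 lower members in neutrophils became 9 of 40 (background 3.93%) with a 2-fold rule and 9 of 38 without cluster 1, and the 1 higher member became 0 with a 2-fold rule. Subtracting the trend on intron length gave 15 of 40 lower (background 9.11%). Without cluster 1 the pump's median log2 ratio was −0.12 in donor and −0.13 in recipient neutrophils. Scaling by the median of ratios took the recipient median of all genes from 0.11 to −0.003 and that of the pump to −0.52. The 2 lower members in classical monocytes became 1 with stricter cell filters, with doublets kept and with the intron trend subtracted, 7 with the looser fold rule (background 10.2%) and 0 with a 2-fold rule (0.475%). Npc1 was the call lost where 1 remained. In nonclassical monocytes the Npc1 call was lost without mitochondrial and ribosomal genes in the total, with equal cell weights and with the intron trend subtracted, and that of Atp6v0d1 with equal cell weights. In nonclassical monocytes the 6 became 11 under the looser rule (background 12.1%) and 2 at 2-fold (1.45%), and the 0 higher became 3 under the looser rule (10.8%). Clustering each library alone gave a classical monocyte ratio of 1.53 hydrolase UMIs per pump UMI, and left classical monocytes in 3 libraries, so that no count over both origins could be made. Leaving out 1 library at a time gave medians of that ratio of 1.57 to 1.62 in classical monocytes and 0.5003 to 0.559 in neutrophils, and 13 to 16 members highest in neutrophils. Without the monocyte cluster rich in neutrophil transcripts the vehicle recipient library kept 98 nonclassical cells, too few for a count. In donor cells Atp6v1c1, Atp6v1h, Atp6v0d1 and Npc1 then fell short of the 1.5-fold rule, as given above. The causes of these shifts were not tested. Depth limits the rare transcripts: the neutrophil value of Atp6v0d2 in the RvD1 recipient library rests on 13 UMIs.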

Other observations

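Rarer classes, which entered no comparison over all 4 libraries, had lysosomal profiles of their own. Alveolar macrophages, the resident phagocytes of the air spaces, reached the minimum of cells only in the vehicle donor library (216 cells), where the 40 members made up 1.83% of UMIs. Atp6v0d2 stood at 1090.3 CPM, Ctsd at 2518 CPM, Psap at 1987 CPM and the acid lipase Lipa at 598 CPM, and hydrolases gave 1.38 UMIs per pump UMI. Atp6v0d2 was among the 10 leading genes of that cluster although the members had been left out of the clustering.

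Plasmacytoid dendritic cells, which make type I interferon, were counted in both donor libraries (39 and 30 cells, vehicle then RvD1). They held 1.69 and 1.80 hydrolase UMIs and 1.45 and 1.35 soluble-protein UMIs per pump UMI. Grn, progranulin, was at 853 and 871 CPM, Ctsl at 846 and 1019 CPM, Ctsh at 617 and 689 CPM and Npc1 at 306 and 182 CPM, while Cd63 was at 2.88 and 2.31 CPM. In classical monocytes Grn was at 159.9 to 187 CPM.

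Basophils or mast cells were counted in the vehicle donor, RvD1 donor and RvD1 recipient libraries. They were the class richest in Cd63, a tetraspanin used to follow their degranulation, at 562, 1104 and 1021 CPM, and membrane proteins gave 0.717, 0.940 and 1.06 UMIs per pump UMI. Ctsc was at 323, 292 and 342 CPM. Psap was at 284, 48.5 and 8.35 CPM, the widest range between libraries among the members named for this class.

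Dendritic cells other than the plasmacytoid ones held 755, 878 and 918 CPM of Ctss and 241, 301 and 13.3 CPM of Cd63 in the vehicle donor, RvD1 donor and RvD1 recipient libraries.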
